A study of Mus musculus with 8 samples.

Results

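The let-7 family of microRNAs (miRNAs) was followed through male germ cell development in the mouse and in germ cells made in culture. The 9 members were let-7a, let-7b, let-7c, let-7d, let-7e, let-7f, let-7g, let-7i and miR-98, taken as the genes Mirlet7a-1, Mirlet7b, Mirlet7c-1, Mirlet7d, Mirlet7e, Mirlet7f-1, Mirlet7g, Mirlet7i and Mir98. Reads of 20 to 24 nt that lay exactly, in the sense direction, within a member's annotated miRNA transcript were counted, and a mature form made by several loci was counted once. Their 5p forms were 9 of the 738 miRNA arms (the 5p or 3p product of a hairpin) with reads, of which 481, all 9 included, passed a filter on low counts and were tested.

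Small RNA was sequenced from mouse primordial germ cells (mPGCs) and from primordial germ cell-like cells (mPGCLCs), with 2 libraries in each of 4 groups. The mPGC groups were male cells of embryonic day E12.5, E13.5 or E15.5, labelled GOF18 and C57BL/6J. The labels give sorting of genital ridge cells by the surface markers SSEA1 and CD61, whereas the study's methods give a mixed FVB/C57BL/6J background and sorting on the EGFP of the GOF18 Oct4 reporter, so strain and gate are uncertain. Each mPGC replicate pooled embryos, and replicates came from different litters. The SGET mPGCLCs were male cells of B6CBA/129 background derived from a single embryonic stem cell line, sorted from day 6 embryoid bodies as Stella-GFP positive and Esg1-tdTomato negative. Mouse line, strain and gate therefore differ together with origin between the SGET mPGCLCs and the mPGCs, and their effects cannot be told apart. Nothing states that the 2 SGET libraries came from separate differentiations. All p-values measure the spread between these libraries. Both HiSeq and NovaSeq instruments were used, and which library ran on which is not given in the sources used here.

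The let-7 miRNAs share their seed, the bases of a miRNA that pair with target transcripts, and are known as miRNAs of differentiated cells. In pluripotent and early germ cells the RNA-binding protein LIN28 holds the let-7 precursors back and recruits enzymes that add U residues to them. One known let-7 target is the transcript of Prdm1 (Blimp1), a regulator of germ cell specification. The reads counted here are mature forms, and neither precursors nor LIN28 were measured.

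The mature sequences are shown because members differ at few bases, and exact matching alone separated them. They are from RefSeq on GRCm38.p6, 5′ to 3′, with the seed (bases 2 to 8) in capitals.

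let-7a-5p: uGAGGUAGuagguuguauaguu
let-7b-5p: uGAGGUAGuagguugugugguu
let-7c-5p: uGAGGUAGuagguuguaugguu
let-7d-5p: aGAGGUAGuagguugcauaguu
let-7e-5p: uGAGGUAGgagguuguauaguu
let-7f-5p: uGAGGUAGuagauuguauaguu
let-7g-5p: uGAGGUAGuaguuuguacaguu
let-7i-5p: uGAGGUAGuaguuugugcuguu
miR-98-5p: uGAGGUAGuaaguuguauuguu
let-7d-3p: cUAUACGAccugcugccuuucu

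All 9 members matched a RefSeq 5p entry, and for each the usual 5′ start gave the same 22 bases. Counting positions from 1 at the 5′ end, let-7c differs from let-7a by A19G, let-7e by U9G and let-7f by G12A. let-7b differs from let-7c by A17G. Members that differ by 1 base could exchange reads through a sequencing or PCR error. Over the 63 single-base changes of the 22-nt let-7a form that are no other member, the median change had 0 to 2 reads in each library, against at least 266 reads of let-7f and 1895 of let-7c. The most frequent change had 9 to 65 reads in 7 libraries and 1300 in SGET replicate 1. Over the 64 such changes of the 22-nt let-7c form, the median had 0 or 0.5 reads, against at least 250 reads of let-7b. The most frequent change of let-7c had 9 to 49 reads in 7 libraries. It had 329 in SGET replicate 1, where let-7b had 300 reads. All 9 lie within longer annotated transcripts on GRCm38. Mirlet7a-1 (chr13:48538179-48538272, minus strand), Mirlet7f-1 (chr13:48537829-48537917) and Mirlet7d (chr13:48536012-48536114) are exonic in 1 lincRNA, 6720427I07Rik. Mirlet7c-1 (chr16:77599657-77599750, plus strand) is intronic in Mir99ahg, Mirlet7e (chr17:17830352-17830444, plus) in Spaca6, Mirlet7g (chr9:106178840-106178927, plus) in Wdr82 and Mir98 (chrX:151913214-151913321, plus) in Huwe1. Mirlet7b (chr15:85707319-85707403, plus) is exonic in Lncppara, and Mirlet7i (chr10:122985640-122985724, minus) in the transcribed pseudogene D630033A02Rik. The mature forms of let-7a, let-7c and let-7f are also made by Mirlet7a-2, Mirlet7c-2 and Mirlet7f-2, so their reads cannot be assigned to 1 locus.

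Some properties of the libraries limit every value that follows. Total counts ran from 7447873 to 26552524 mapping reads. Reads matching miRNAs made up 12.8% to 24.8% of mapping reads in 6 libraries but 2.22% and 1.89% at E15.5, so a share depends on the denominator there. The number of reads per distinct sequence had an upper mode of 35 to 279 in 7 libraries and of 939 in E15.5 replicate 2. All let-7 5p reads of that library amounted to 22.04 times its upper mode, against 134 to 1911 times in the others. The counts of let-7f, let-7g, let-7i and miR-98 in E15.5 replicate 2 lay below the mode. The part of PCR copies in the results was not tested.

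**Figure D1:**
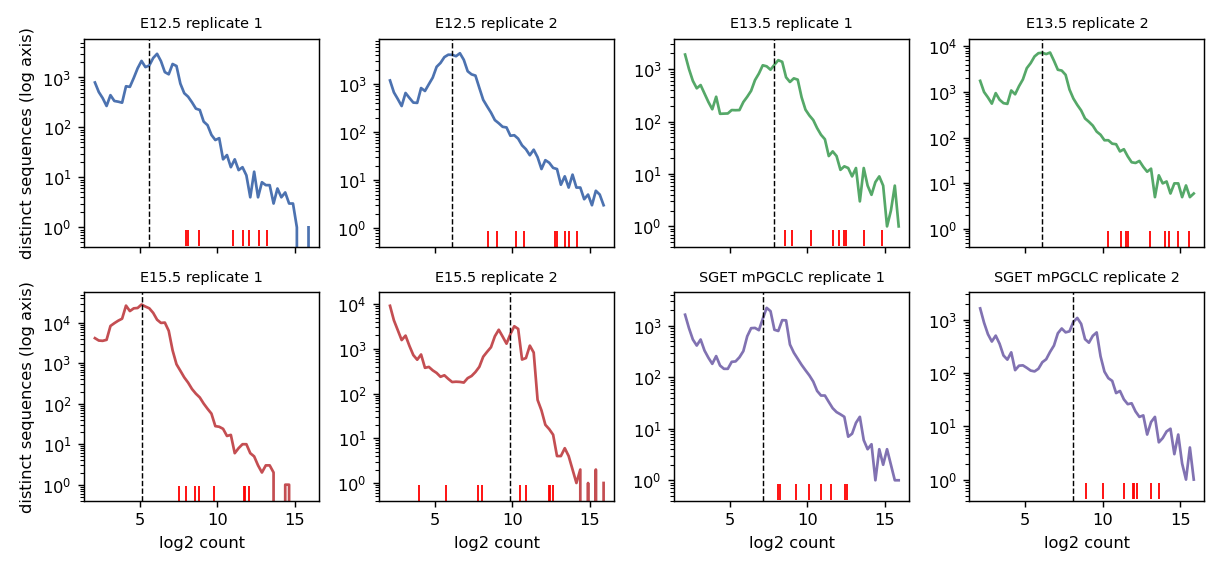
Number of distinct sequences (log axis) against their log2 count in each library; the dashed line is the upper mode and red ticks mark the 5p counts of the let-7 members with reads. The mode is 939 counts in E15.5 replicate 2, where 4 members sit left of it, and at most 279 elsewhere.

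Of the miRNAs of pluripotent and early germ cells, the cells carried mainly those of Mir290 to Mir295. Mir292 alone was 18.3% and 17.0% of miRNA-matching reads at E12.5. Each gene from Mir290a to Mir295 was lower in both E15.5 libraries than in both at E12.5. The Mir302 genes and Mir367 were each at most 0.388% in any library. Mir302b (0.0238% and 0.0252% at E12.5, 0.0693% and 0.127% at E15.5) and Mir302c were higher at E15.5. Mir302a, Mir302d and Mir367 overlapped. The Mir290 to Mir295, Mir302 and Mir367 genes (10 or 11 of 11 with reads) summed to 29.3% and 30.1% of miRNA-matching reads in the E12.5 libraries, to 21.1% and 21.5% in those of E13.5, to 12.9% and 14.1% in those of E15.5 and to 35.9% and 36.8% in SGET mPGCLCs. Reads of the mesenchyme and smooth muscle list (5 or 6 of 6 with reads) were 0.121% and 0.174% in the E12.5 libraries, 0.108% and 0.394% in those of E13.5, 0.403% and 1.17% in those of E15.5 and 0.543% and 0.668% in SGET mPGCLCs. The gonadal soma pair Mir202 and Mir140 summed to 0.288% and 0.303% in the E12.5 libraries, 0.316% and 0.440% in those of E13.5, 0.483% and 0.566% in those of E15.5 and 0.0833% and 0.135% in SGET mPGCLCs, where Mir202 had no read. Blood markers reached at most 0.103%, with 0 to 4 of 5 having reads, and Mir451a had reads only in E15.5 replicate 2, at 0.000199%. The endothelial marker Mir126a lay between 0.000332% and 0.0434%. The part of other cells in the let-7 shares was not tested. In such bulk samples, fewer cells of a type and less of an RNA per cell cannot be told apart.

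As a family, let-7 was a higher share of the miRNAs at each later embryonic stage, and its share was lowest in SGET mPGCLCs. Its 5p forms were 2.78% (95% Wilson interval 2.75 to 2.82) and 2.14% (2.12 to 2.16) of miRNA-matching reads in the E12.5 libraries, 3.48% (3.46 to 3.51) and 3.19% (3.17 to 3.21) in those of E13.5, and 4.41% (4.34 to 4.48) and 4.12% (4.07 to 4.18) in those of E15.5. In SGET mPGCLCs they were 1.14% (1.13 to 1.16) and 1.62% (1.61 to 1.64). These intervals cover counting error of reads only and treat PCR copies as separate molecules, so they are too narrow where copies are many. In E15.5 replicate 2 all let-7 5p reads were 22.04 times the upper mode. By the values of their 2 libraries, none of the 4 groups overlapped with another on this scale. Among all tested arms, both libraries were higher in 17.9% for E13.5 against E12.5, 12.7% for E15.5 against E13.5 and 15.6% for E15.5 against E12.5. Both were lower in 31.2% of arms for SGET mPGCLCs against E12.5. The ratio of group means was 1.36 ± 0.265 (propagated SD, n = 2 per group) for E13.5 over E12.5, 1.73 ± 0.331 for E15.5 over E12.5, 1.28 ± 0.1001 for E15.5 over E13.5 and 0.562 ± 0.173 for SGET mPGCLCs over E12.5. The family is a sum, and these ratios were not tested.

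Against all mapping reads the order was different. There the family was 0.357% and 0.441% in the E12.5 libraries, 0.508% and 0.678% in those of E13.5, 0.0978% and 0.0779% in those of E15.5 and 0.183% and 0.403% in SGET mPGCLCs. The E15.5 libraries were the lowest on this scale, at 0.220 ± 0.0481 (propagated SD, n = 2) of the E12.5 mean, beside their low share of miRNA-matching reads. The SGET mPGCLC libraries overlapped with E12.5, and their ratio of 0.735 ± 0.405 was 1.01 without SGET replicate 1.

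**Figure D2:**
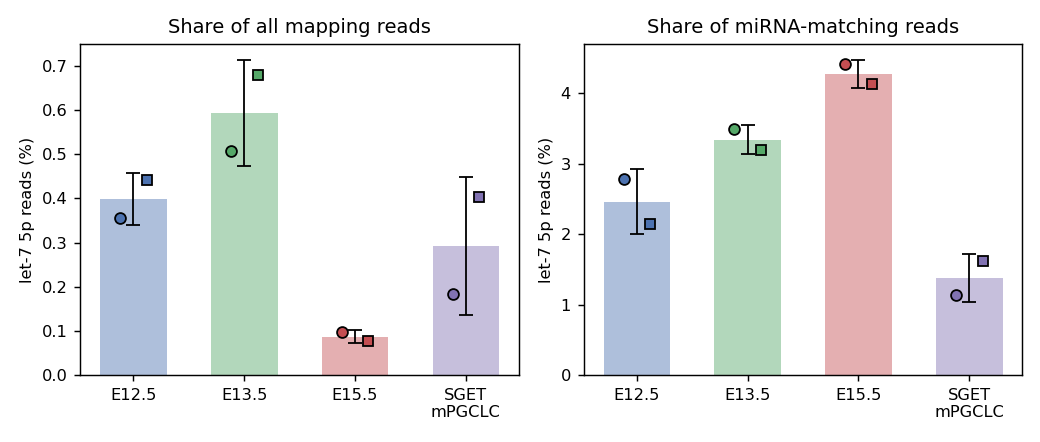
Share of let-7 5p reads among all mapping reads (left) and among miRNA-matching reads (right), in percent; points are the 2 libraries of each group, bars their mean and error bars the SD. E15.5 is lowest on the left, at a mean of 0.0879%, and highest on the right, at 4.27%.

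Of the members, let-7e, let-7a and let-7c together held most of the family's reads in every group. At E12.5 let-7e was 32.9% ± 3.77 (SD, n = 2) of let-7 5p reads, let-7a 23.5% ± 2.56, let-7f 14.96% ± 4.02, let-7c 13.9% ± 2.38 and let-7g 9.67% ± 2.88. The neighbours let-7f and let-7c overlapped and changed places between the 2 libraries, while let-7e led let-7a, and let-7g was below let-7f and let-7c, in both. At E12.5, let-7d (1.92% ± 1.26), let-7i (1.87% ± 0.196), let-7b (0.763% ± 0.252) and miR-98 (0.430% ± 0.608) were minor. At E13.5 let-7e alone was 41.1% ± 6.39 of the family. In both E15.5 libraries let-7c was the most abundant member, at 31.4% and 30.1%, whereas it was 9.24% to 15.6% in the other 6. In SGET mPGCLCs let-7e was 31.2% ± 1.89 and let-7a 27.3% ± 6.47, with let-7a first in replicate 1 and let-7e first in replicate 2.

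**Figure D3:**
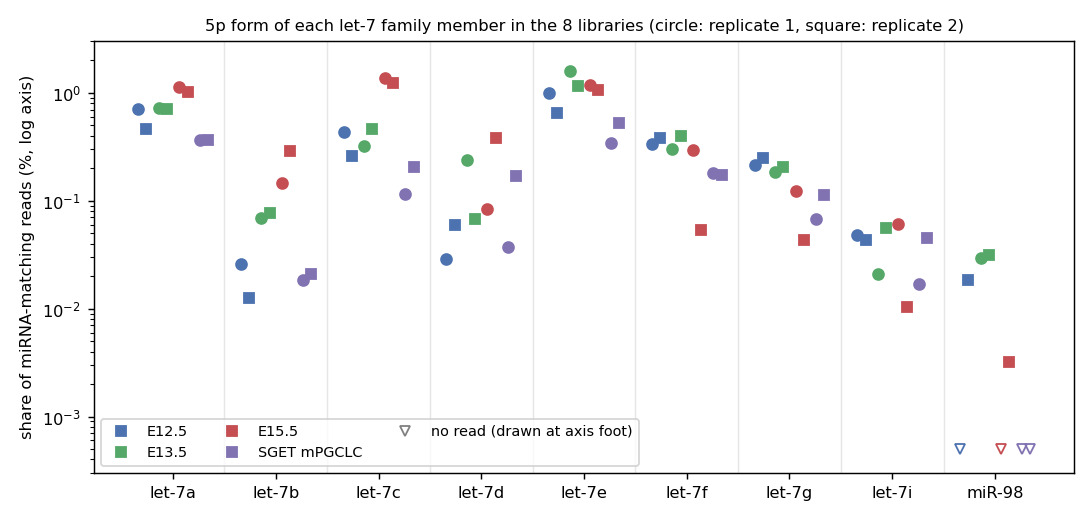
Share of miRNA-matching reads (percent, log axis) of each member's 5p form in the 8 libraries; circles are replicate 1, squares replicate 2, and open triangles mark libraries with no read. The E15.5 points lie highest for let-7a, let-7b and let-7c, while E15.5 replicate 2 is lowest for let-7f, let-7g and let-7i.

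The widest interval set the E15.5 mPGCs beside the E12.5 mPGCs. let-7c was 0.435% and 0.262% of miRNA-matching reads at E12.5 and 1.38% and 1.24% at E15.5. Both E15.5 libraries were above both at E12.5, and let-7c rose by a log2 fold change of 1.97 ± 0.59 (SE; edgeR quasi-likelihood test, adjusted p = 0.0396). It was the only member called of 9, among 24 of 481 arms called in this comparison (4.99%).

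The let-7c call was not stable. The adjusted p ran from 0.00387 to 0.725 over the alternatives, all of which kept the direction except scaling to mapping reads. By edgeR it was lost in a fit of these 2 groups only (adjusted p = 0.0509), with the replicate number as a block (0.0596), with either E12.5 replicate left out (0.313 without replicate 1 and 0.725 without replicate 2) and when only sequences at or above the valley below the upper mode were kept (0.507). On mapping reads let-7c had a log2 fold change of -1.02, with a median over all arms of -3.34.

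let-7b had the largest fitted difference of the family. Its share was 0.0262% and 0.0125% at E12.5 and 0.147% and 0.292% at E15.5, with no overlap. The log2 fold change was 3.63 ± 1.32 (SE) and missed the threshold by edgeR (adjusted p = 0.107). DESeq2, which called 9.36% of arms, called let-7b (adjusted p = 0.000468). In E15.5 replicate 2 the let-7b count was 1.56 times the upper mode, and the log2 fold change was 2.84 without that library. let-7d, made from the same primary transcript as let-7a-1 and let-7f-1, was 0.0287% and 0.0602% at E12.5 and 0.0845% and 0.383% at E15.5. Its log2 fold change was 2.54 ± 1.10 (SE; edgeR adjusted p = 0.242, DESeq2 adjusted p = 0.0443). The value of let-7d rested on E15.5 replicate 2, where its count was 2.05 times the upper mode, and its log2 fold change was 0.85 without that library.

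let-7a and let-7e differed less. let-7a was 0.705% and 0.465% at E12.5 and 1.14% and 1.03% at E15.5, a log2 fold change of 0.95 ± 0.52 (SE; edgeR adjusted p = 0.442). let-7e was 0.990% and 0.647% at E12.5 and 1.18% and 1.07% at E15.5, a log2 fold change of 0.52 ± 0.47 (SE; edgeR adjusted p = 0.684). Neither set of libraries overlapped. In all, 5 of 9 members had both E15.5 libraries above both at E12.5, where 15.6% of all tested arms did.

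let-7f and let-7g lay the other way. let-7f was 0.337% and 0.381% at E12.5 and 0.296% and 0.0530% at E15.5, a log2 fold change of -1.10 ± 0.78 (SE; edgeR adjusted p = 0.611). let-7g was 0.212% and 0.2503% at E12.5 and 0.123% and 0.0432% at E15.5, a log2 fold change of -1.50 ± 0.98 (SE; edgeR adjusted p = 0.566). These 2 of 9 members had both E15.5 libraries below both at E12.5, where 28.5% of all tested arms did. In E15.5 replicate 2 the counts were 266 for let-7f and 217 for let-7g, or 0.283 and 0.231 times the upper mode of that library. Without E15.5 replicate 2 the let-7f log2 fold change was -0.36, and without E15.5 replicate 1 it was -2.56 (edgeR adjusted p = 0.0165), where 10.5% of arms were called.

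let-7i and miR-98 had no clear direction. let-7i was 0.0483% and 0.0430% at E12.5 and 0.0610% and 0.0104% at E15.5, and the groups overlapped. miR-98 had no read in replicate 1 of either stage, which at 3 counts allows up to 0.000314% of reads at E12.5 and 0.000995% at E15.5. These limits cover counting error of reads only and treat PCR copies as separate molecules. Reads equal to 1 upper mode would be 0.00513% and 0.0116% in these libraries, so a miRNA at those levels could be missed. Whether the upper mode is the number of PCR copies of a molecule was not tested. In replicate 2 miR-98 was 0.0184% at E12.5 and 0.00319% at E15.5, the latter being 16 reads.

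The median log2 fold change of the 9 members between E12.5 and E15.5 was 0.52, beside -0.29 over all 481 arms. With mapping reads as library size it was -2.49 beside -3.34, and let-7e, let-7f and let-7g were then called lower (edgeR adjusted p = 0.0137, 0.0104 and 0.0107), 3 of 9 members where 16.1% of 459 arms were called. On that scale let-7a, let-7c, let-7d and let-7e changed sign to negative, and let-7b alone stayed positive, at 0.57. Relative to the median of all arms on that scale, let-7b (3.90), let-7c (2.32), let-7d (2.52), let-7a (1.28), let-7e (0.85) and let-7i (0.06) lay above it and let-7f (-0.67), let-7g (-1.14) and miR-98 (-2.57) below it, in log2 units.

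**Figure D4:**
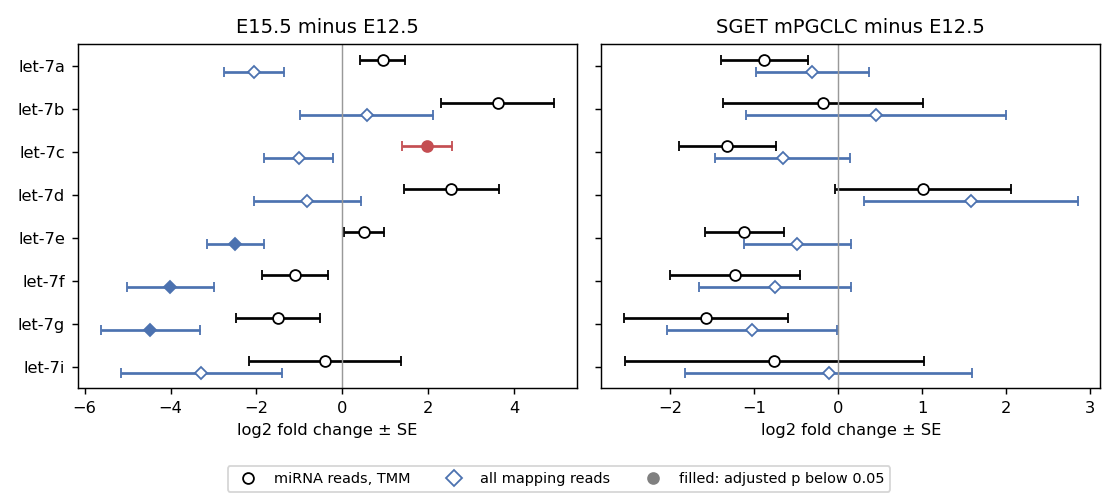
Log2 fold change with SE for 8 members in the E15.5 and SGET mPGCLC comparisons with E12.5 (miR-98 is left out because libraries lack its reads); circles are scaled to miRNA-matching reads with TMM, diamonds to all mapping reads, and filled symbols have an adjusted p below 0.05. let-7c at 1.97 is the only filled circle, and let-7e, let-7f and let-7g are filled diamonds on the left.

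Between E12.5 and E13.5 no member passed the test, where 4 of 481 arms did (0.832%). None of the 9 had an unadjusted edgeR p below 0.05 and DESeq2, which called 1.87% of arms, called none. By share, let-7a, let-7b, let-7d, let-7e and miR-98 had both E13.5 libraries above both at E12.5 (5 of 9, where 17.9% of arms did), and let-7g had both below (1 of 9, where 17.5% did). let-7b was 0.0687% and 0.0764% at E13.5, above 0.0262% and 0.0125% at E12.5, with a log2 fold change of 1.91 ± 1.23 (SE; edgeR adjusted p = 1). let-7e was 1.59% and 1.17% at E13.5, with a log2 fold change of 0.75 ± 0.47 (SE; edgeR adjusted p = 1). miR-98, which had no read in E12.5 replicate 1, was 0.0293% and 0.0311% at E13.5, its highest share in any group. The median log2 fold change of the members was 0.30, beside -0.06 over all arms, and 0.47 beside 0.07 with mapping reads as library size, where let-7f turned positive.

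Between E13.5 and E15.5 no member passed the test either, where 1 of 481 arms did (0.208%). let-7c came closest, from 0.322% and 0.465% to 1.38% and 1.24%, with a log2 fold change of 1.79 ± 0.59 (SE; edgeR adjusted p = 0.243). It was the only member with an unadjusted edgeR p below 0.05, and DESeq2, which called 2.91% of arms, called none. Without E15.5 replicate 1, let-7c and let-7f were called, in opposite directions, where 6.25% of arms were. let-7a, let-7b and let-7c had both E15.5 libraries above both at E13.5 (3 of 9, where 12.7% of arms did), and let-7f, let-7g and miR-98 had both below (3 of 9, where 19.3% did). The median of the members was -0.17, beside -0.25 over all arms. On mapping reads it was -3.28 beside -3.52, all 9 had negative log2 fold changes, and let-7a, let-7e, let-7f and let-7g were called lower, 4 of 9 where 17% of 459 arms were called.

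The last comparison set SGET mPGCLCs beside E12.5 mPGCs. In SGET mPGCLCs let-7a was 0.365% and 0.369% of miRNA-matching reads, below 0.705% and 0.465% at E12.5. let-7c was 0.116% and 0.204%, against 0.435% and 0.262%. let-7e was 0.341% and 0.528%, against 0.990% and 0.647%. In all 3 the SGET libraries were below the E12.5 libraries, as they were for let-7f (0.181% and 0.174%) and let-7g (0.0675% and 0.112%). These were 5 of 9 members, where 31.2% of all tested arms had both libraries lower, and 0 of 9 had both higher, where 23.1% did.

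No member passed the test, where 56 of 481 arms did (11.6%). The log2 fold changes were -0.88 ± 0.52 (SE) for let-7a, -1.32 ± 0.58 for let-7c, -1.12 ± 0.47 for let-7e, -1.23 ± 0.78 for let-7f and -1.58 ± 0.98 for let-7g, with edgeR adjusted p between 0.138 and 0.322. The median of the members was -1.12, beside -0.61 over all arms, and -0.49 beside -0.20 with mapping reads as library size, where let-7b turned positive. let-7b did not separate the groups, at 0.0184% and 0.0209% in SGET mPGCLCs. let-7d was 0.0375% and 0.170%, with a log2 fold change of 1.01 ± 1.05 (SE; edgeR adjusted p = 0.580), and its direction turned without SGET replicate 2. let-7i was 0.0169% and 0.0451%. miR-98 had no read in either SGET library, which at 3 counts allows up to 0.000184% and 0.000127% of reads, again for counting error only, while 1 upper mode of reads would be 0.00856% and 0.0118%. Since E12.5 replicate 1 had none as well, the groups overlapped. DESeq2 called miR-98 and no other member, where it called 20.6% of arms. The 3 members with an unadjusted edgeR p below 0.05 were let-7c, let-7e and miR-98. The miR-98 fit (log2 fold change -10.5 ± 4.60 (SE)) rests on a group without reads, so its size has no meaning. It is part of the median of the members above.

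Members did not all vary in step across the 8 libraries. Over the 8 libraries, Pearson's r of log2 CPM (counts scaled to library size) was 0.958 between let-7a and let-7c and 0.917 between let-7f and let-7g, but -0.091 between let-7a and let-7f and -0.568 between let-7d and let-7f. Mirlet7a-1, Mirlet7f-1 and Mirlet7d lie in 1 transcript, yet these mature forms did not vary in step over the 8 libraries. The reads of Mirlet7a-2 and Mirlet7f-2 are mixed in. The low values include E15.5 replicate 2, where let-7f was 0.283 times the upper mode. Pearson's r without that library was not computed. The libraries of a group share their stage and scaling, and these values are descriptions.

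The 6 miRNAs clustered with let-7 genes were read the same way. miR-125a, which has LIN28 transcripts among its known targets and lies beside let-7e, was 2.74% and 2.73% of miRNA-matching reads in the E12.5 libraries, 3.59% and 4.15% in those of E13.5, 4.56% and 6.53% in those of E15.5 and 1.26% and 1.24% in SGET mPGCLCs. It rose between E12.5 and E15.5 (log2 fold change 1.11 ± 0.30 (SE), edgeR adjusted p = 0.0234) and fell in SGET mPGCLCs against E12.5 (log2 fold change -1.35 ± 0.31 (SE), edgeR adjusted p = 0.000968). Neither call was stable. Of mapping reads, miR-125a was 0.351% and 0.563% at E12.5 but 0.101% and 0.123% at E15.5, and with mapping reads as library size the E15.5 log2 fold change was -2.03 (edgeR adjusted p = 0.0136). The E15.5 call was also lost by DESeq2 (adjusted p = 0.108), at or above the valley (edgeR adjusted p = 0.507) and without E12.5 replicate 1 (0.313), E12.5 replicate 2 (0.331) or E15.5 replicate 2 (0.583). The SGET call kept its direction and was lost with mapping reads (edgeR adjusted p = 0.357), without the low-count filter (0.154), in a fit of the 2 groups (0.0621), at or above the valley (0.0911), without E12.5 replicate 2 (0.417) and by DESeq2 (adjusted p = 0.265). miR-99b, the third member of that cluster, was 0.476% and 0.795% at E12.5 and 0.866% and 0.306% at E15.5, which overlap. miR-99a, beside let-7c, was at most 0.0345%, and miR-100, beside Mirlet7a-2, at most 0.00681%. The shared mature form of Mir125b-1 and Mir125b-2 was 0.000626% to 0.197%. Thus 1 of these 5 mature forms passed for E15.5, where 4.99% of arms did, and 1 for SGET mPGCLCs, where 11.6% did, and none passed between E12.5 and E13.5 or between E13.5 and E15.5.

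Outside the family, 105 arms with a mean of at least 1000 CPM were compared with the summed let-7 5p level over the 8 libraries. The 5 most alike were Mir871 5p (Pearson's r 0.969), Mir871 3p (0.967), Mir471 5p (0.964), Mir320 3p (0.961) and Mir125a 5p (0.958). Mir871 3p was 0.178% and 0.182% at E12.5, 4.90% and 8.41% at E15.5, with 0.000122% and 8.46e-05% for SGET mPGCLCs, a far wider range than that of let-7.

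The usual 5′ end was used by 97.0% to 99.9% of 5p reads, and a start 1 base later, which shifts the seed, by 0.135% to 2.56%. Reads of 22 nt made up 86.5% and 85.9% of let-7 5p reads in the E12.5 libraries, 86.6% and 86.0% in those of E13.5, 86.9% and 95.5% in those of E15.5 and 92.4% and 89.0% in SGET mPGCLCs. E15.5 replicate 2 was the highest and stood apart from its own replicate. Reads of 21 nt were 3.402% to 7.68% and those of 23 nt 0.991% to 7.75%. The 22-nt percent was 4.95 points higher at E15.5 and 4.47 points higher in SGET mPGCLCs than at E12.5 (exact permutation p = 0.333 in both, two-sided, the lowest that 2 libraries against 2 allow). The difference at E15.5 was 0.646 points without E15.5 replicate 2.

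A templated 3′ end can carry added bases. Reads that followed a member's precursor for at least 20 nt from the usual start and then ended in 1 or 2 bases not in any of its loci were 9.97% and 11.5% of let-7 5p reads in the E12.5 libraries, 13.6% and 13.51% in those of E13.5, 13.0% and 6.95% in those of E15.5 and 6.68% and 5.57% in SGET mPGCLCs. A sequencing error in the last bases cannot be told apart from such a tail. Both SGET libraries were below both E12.5 libraries, by a mean of 4.60 points (exact permutation p = 0.333, two-sided and the lowest attainable). This did not hold for each member. In SGET replicate 1, the tailed percent of let-7c (21.7%), let-7d (19.3%) and let-7f (11.3%) was above both E12.5 libraries. That of let-7a, let-7b, let-7e, let-7g and let-7i was below both. In SGET replicate 2, each member with reads was below both. At E15.5 the 2 libraries lay on opposite sides of E12.5, and the mean was 0.773 points lower (p = 1 by the same exact test).

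**Figure D5:**
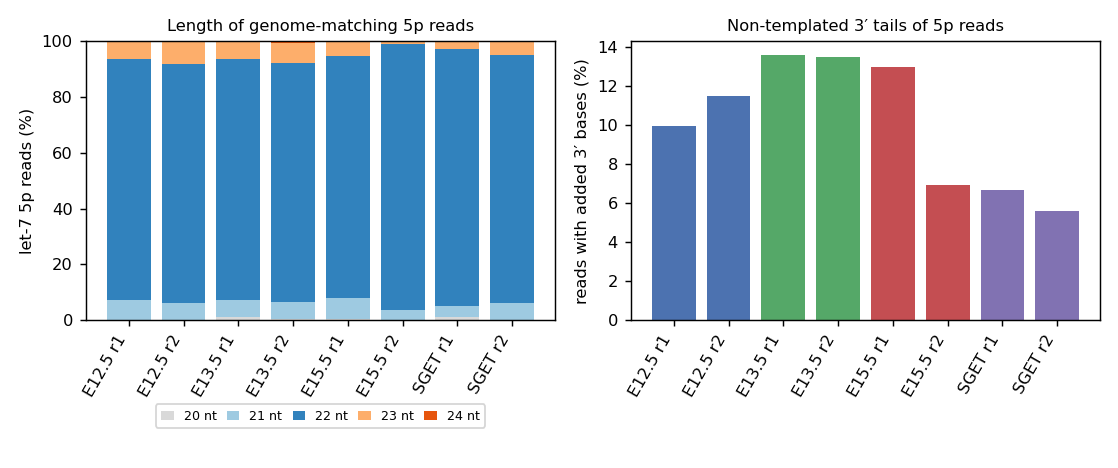
Left, percent of let-7 5p reads of each length from 20 to 24 nt in the 8 libraries (r1 and r2 are replicates); right, percent of reads at the usual start with 1 or 2 non-templated 3′ bases. Reads of 22 nt make up 85.9% to 95.5%, and tails are fewest in the SGET mPGCLC libraries, at 6.68% and 5.57%.

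A single A was the majority of tails in 6 of 8 libraries. It made up 52.5% and 57.3% of tailed reads in the E12.5 libraries, 72.5% and 52.8% in those of E13.5, 54.3% and 14.1% in those of E15.5 and 97.4% and 35.2% in SGET mPGCLCs. A single U made up 34.5% and 23.8% in the E12.5 libraries, 14.4% and 22.3% in those of E13.5, 21.9% and 6.42% in those of E15.5 and 0% and 62.2% in SGET mPGCLCs, whose 2 libraries therefore differed most. A U that equals the next base of the precursor is not seen as a tail, so the counts of U are lower limits. After the 22-nt form, a single U can be counted only for let-7e, let-7i and miR-98, where the precursor goes on with G at every locus. For the other 6 members it goes on with U at some or all loci, so members cannot be ranked by U tails, nor by tails in all. Of the 3, let-7e had 1000 and 1761 reads with a single U at E12.5, let-7i 0 and 1, and miR-98, itself absent from replicate 1, had none. The tails of single members were uneven between replicates, and the AG tail of let-7d had 429 reads in E15.5 replicate 2 and none elsewhere.

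Most 3p reads came from let-7d. The let-7d-3p form, shown above, had 313 and 940 reads in the E12.5 libraries, 680 and 1332 in those of E13.5, 0 and 33 in those of E15.5 and 241 and 0 in SGET mPGCLCs. In E12.5 replicate 1 it exceeded its 5p partner, at 53.3% of the reads of the pair, and it was 35.8% in replicate 2, 14.1% and 31.8% at E13.5, 1.69% in E15.5 replicate 2 and 28.2% in SGET replicate 1. The let-7d-3p counts were 6.39 and 13.4 times the upper mode at E12.5, and 2.89 and 19.0 times at E13.5. They were 0.0351 times in E15.5 replicate 2 and 1.72 times in SGET replicate 1. The libraries without a read, E15.5 replicate 1 and SGET replicate 2, had upper modes of 35 and 279 reads. A form at 1 upper mode could be missed there. Beyond let-7d, miR-98-3p had 283 reads in E13.5 replicate 1 (1.20 times the upper mode) and 1 in E15.5 replicate 2. The let-7c-3p form had at most 54 reads and let-7e-3p had 102 in a single library. The 3p arms of let-7a, let-7b, let-7f, let-7g and let-7i had no reads. Over the family, the 3p percent was 1.16% and 1.54% at E12.5, 0% and 0.174% at E15.5, with 1.27% and 0% for SGET mPGCLCs. The mean was 1.27 points lower at E15.5 (exact permutation p = 0.333, two-sided and the lowest attainable) and 0.718 points lower in SGET mPGCLCs (p = 0.667 by the same exact test).

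The hairpin loop, the stretch between the 2 arms, is where LIN28 binds, at the letters GGAG. The last 16 bases of 4 loops are shown, with GGAG in capitals, because 2 of the members lack it.

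let-7c-1 loop: acacccugGGAGuuaa
let-7g loop: cccgguacaGGAGaua
let-7b loop: gccccuccgaagauaa
miR-98 loop: cccaguaagaagauaa

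GGAG was found in the loops of 7 of 9 members, against 8.07% of 644 RefSeq hairpins whose arms could be placed. The 2 without it were let-7b and miR-98. UGAU was in the loops of let-7b, let-7f-1 and let-7g (3 of 9), against 6.06% of hairpins. Only the sense strand of the loop was searched, and a match is a description of these letters.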

How the data were processed

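Small RNA was measured in 8 libraries, grouped by their sample labels, with 2 per group. Per the labels, the authors used cutadapt 3.2 and STAR 2.5.3a on GRCm38. They deposited the count of each distinct sequence, unnormalized and not per gene. The random adapter bases were trimmed by the authors and not used as molecular identifiers, so counts include PCR copies. Sequences of 20 to 24 nt were matched exactly, sense strand, to the 2202 miRNA transcripts of GENCODE M21. Arms sharing at least 50% of their reads were merged. Of 738 arms, 481 passed edgeR's default filter and were tested by edgeR 4.0.16 in R 4.3.3 (quasi-likelihood test, 4 groups in one fit, miRNA-matching reads with TMM as library size, Benjamini-Hochberg adjustment over 481 arms). Log2 fold changes carry the standard error implied by the F statistic. Other comparisons used exact permutation tests in Python 3.11.15 and scipy 1.17.1. Both edgeR and the alternative, DESeq2 1.42.0, were run on simulated data. The simulated counts varied less than these libraries, whose common dispersion was 2.17, so they do not give the error rates here. The members, the lists of other miRNAs and the tests were chosen with earlier results of these data known. The rule for names took all members and both arms, the 6 miRNAs clustered with them, and the 5 arms with the most similar pattern. Between same-numbered libraries of different groups, deviations from group means correlated at 0.05 to 0.13. The miRNA-matching percent of mapping reads was lower in replicate 1 than in replicate 2 for E12.5 mPGCs (12.8%, 20.6%). It was also lower for E13.5 mPGCs (14.6%, 21.3%) and SGET mPGCLCs (16.0%, 24.8%), but higher for E15.5 mPGCs (2.22%, 1.89%). Whether same-numbered libraries share a batch was not tested. Precision was set by totals of 7447873 to 26552524 reads, and intervals are 95% Wilson intervals for counting error only. Alternatives changed the library size, scaling, filter, length range, read start, test, groups in the fit and libraries. No column of authors' comparisons was present.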

Additional observations from a re-analysis of the deposited data

Results flagged for a closer look

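In SGET mPGCLC replicate 1, reads of let-7 5p forms with G in place of the first base U, which the exact matching had left out, were far above their level elsewhere. As a percent of the unchanged reads they were 24.1% for let-7a (1401 reads), 17.4% for let-7c, 14.8% for let-7i, 13.0% for let-7b, 11.2% for let-7g, 4.59% for let-7e and 1.45% for let-7f. The G reads of let-7g (124), let-7f (43), let-7i (41) and let-7b (39) were each below the upper mode of that library, 140 reads. let-7d begins with A and is not part of this count. In the other 7 libraries no member with at least 100 reads exceeded 0.472%, E12.5 mPGCs included. The reads summed to 2233, or 11.9% of the let-7 5p reads of that library, and to at most 0.106% in the others. Among 67 other miRNA sequences that begin with U and had at least 1000 reads in SGET replicate 1, the median was 0.0340%, the highest was 0.190% and 0 exceeded 1%, while 1 such sequence did in E13.5 replicate 2 (6.81%) and 2 did in E15.5 replicate 2 (up to 9.49%). In single-base notation the change is U1G, counted from the 5′ end. Counting these reads as let-7 moved the ratio of SGET mPGCLCs over E12.5 from 0.562 to 0.590 of miRNA-matching reads. The cause was not tested.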

How the results depend on the processing

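The members' direction at E15.5 depended on the denominator. With mapping reads as library size, log2 fold changes turned to -2.06 (let-7a), -1.02 (let-7c), -0.82 (let-7d) and -2.49 (let-7e) for E15.5 minus E12.5. From E13.5 to E15.5 they turned to -2.53 (let-7a), -1.58 (let-7b), -1.43 (let-7c) and -2.42 (let-7d). let-7f turned to 0.093 at E13.5 and let-7b to 0.45 in SGET mPGCLCs minus E12.5. That scaling called 4 members between E13.5 and E15.5 and 3 between E12.5 and E15.5. In the order E13.5 minus E12.5, E15.5 minus E13.5, E15.5 minus E12.5 and SGET mPGCLCs minus E12.5, it called 0, 78, 74 and 25 arms.

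DESeq2 called 3 members for E15.5 minus E12.5 and 1 for SGET mPGCLCs, and 9, 14, 45 and 99 arms. Its log2 fold change changed sign for let-7f at E13.5 (0.0068), let-7e (0.13) and let-7i (0.22) for E15.5 minus E13.5, and let-7b in SGET mPGCLCs (0.11). A fit of only the 2 groups compared called 0 members and 12 arms for E15.5 minus E12.5 and 21 arms for SGET mPGCLCs. With the replicate block, 0 members and 13 arms were called for E15.5 minus E12.5, where the main counts were 1 and 24, and no other count moved by over 1.5 times. The replicate numbers mark no shared animal or culture. Keeping only sequences at or above the valley of the count distribution, an alternative chosen after seeing the data, called 0 members for E15.5 minus E12.5 and 0, 0, 1 and 17 arms, and let-7f (0.092) and let-7i (0.0039) changed sign at E13.5. For E15.5 minus E13.5, 2 arms were called without TMM, 4 without the low-count filter and 3 with only the most frequent start. Without the filter, let-7f (0.28), let-7g (0.047) and let-7i (0.14) changed sign at E13.5. let-7b in SGET mPGCLCs was 0.022 without TMM and 0.020 with reads of 18 to 26 nt.

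Leaving out 1 library at a time gave 1 to 6, 0 to 38, 4 to 64 and 24 to 45 called arms, and 0 to 2 members for E15.5 minus E13.5 and 0 to 4 for E15.5 minus E12.5, most without E15.5 replicate 1. Where 1 library was left, it was assumed to vary like the other groups. Log2 fold changes that changed sign ran from -0.17 to 0.92 (let-7c), -0.29 to 0.60 (let-7f), -0.43 to 0.27 (let-7g) and -1.17 to 0.76 (let-7i) for E13.5 minus E12.5, from -0.93 to 2.22 (let-7d), -0.30 to 0.074 (let-7e) and -1.67 to 0.83 (let-7i) for E15.5 minus E13.5, from -1.94 to 0.34 (let-7i) for E15.5 minus E12.5, and from -0.30 to 0.33 (let-7b) and -0.49 to 1.96 (let-7d) for SGET mPGCLCs minus E12.5. The ratio of family shares of mapping reads ran from 0.459 to 1.01 for SGET mPGCLCs over E12.5, and the tail difference at E15.5 from -3.78 to 2.23 points.

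Without let-7e, the E15.5 over E13.5 ratio of family shares of miRNA-matching reads was 1.61. As an unweighted mean over the 7 members with at least 100 reads in every library, the difference from E12.5 was 0.816 points for 22-nt reads in SGET mPGCLCs, -6.24 (E15.5) and -4.35 (SGET mPGCLCs) for the 3p arm, where let-7d weighs more, and 0.572 for tails at E15.5. Of 449 alternative values for single members, 398 kept direction and side of the threshold, 12 gained and 5 lost the call, and 34 changed sign. For tails, the most frequent start was already the rule, so that alternative gave no value. The 449 values include no miR-98 fold where a group had no reads, although the main fit returned a fold for SGET mPGCLCs minus E12.5. The cause of these changes was not tested.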
